A study of Mus musculus with 12 samples.

Results

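Wfs1, Slc1a1, Fibcd1, Pou3f1, Mpped1, Man1a and Spink8 are 7 genes known to be high in pyramidal cells of the hippocampal CA1 field. They were picked by name as CA1 genes and not by a threshold on these values, although earlier results of these data were known. The 7 symbols matched 7 of the 24079 genes in the table, and all of them were among the 17823 genes with enough reads to be tested. The data are ribosome-bound mRNA of hippocampus from 6 wild-type and 6 Fmr1-/y libraries, and the comparison asks whether loss of FMRP, the RNA-binding protein encoded by Fmr1, went with different levels of these mRNAs.

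All mice carried Wfs1-CreERT2, a tamoxifen-inducible Cre recombinase driven from a bacterial artificial chromosome with the Wfs1 promoter, and RiboTag, an Rpl22 allele that gains a hemagglutinin (HA) tag where Cre has acted. The mutant group, labelled Wfs1-CreERT2:RiboTag:Frm1 knockout, lacked Fmr1 in addition. The mice were males of 2 to 6 months given tamoxifen for 3 days and killed 1 week after it. Each library was a pool of 4 to 6 mice, so the errors given here are errors between pools. The libraries are called WT1 to WT6 and KO1 to KO6 after their replicate numbers. No input libraries were analysed here, so enrichment over whole hippocampus cannot be given.

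CA1 pyramidal cells are the glutamatergic output neurons of the hippocampus, and they differ from CA2 and CA3 pyramidal cells and from dentate granule cells in the genes they keep on in adult life. The 7 genes belong to different kinds of proteins and form no single pathway. Wfs1 encodes wolframin, a membrane glycoprotein of the endoplasmic reticulum whose loss causes Wolfram syndrome, and Man1a encodes a Golgi mannosidase that trims N-linked sugars. Slc1a1 encodes the neuronal glutamate and cysteine transporter EAAC1, and Fibcd1 a cell surface receptor for acetylated sugars such as chitin. Pou3f1 is a POU-domain transcription factor, Mpped1 a member of the metallophosphoesterases, and Spink8 a Kazal-type inhibitor of serine proteases.

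Wfs1 has a place of its own in this design, because its promoter also decided which cells carried tagged ribosomes. Windows around annotated transcript starts were taken from RefSeq on GRCm38.p6, and 5 of the 7 genes had such a window (Wfs1, Slc1a1, Fibcd1, Mpped1 and Man1a). The windows of Wfs1 and Slc1a1 are shown because the study used these genes as its own markers of the captured cells, and that of Fibcd1 because its levels followed those of Slc1a1 more closely than those of Wfs1, as described further on. Capitals mark the GC box GGGCGG or, on the other strand, CCGCCC. The Wfs1 window is chr5:36988933-36989232 on the minus strand, the Slc1a1 window chr19:28834885-28835184 on the plus strand and the Fibcd1 window chr2:31845956-31846255 on the minus strand, each written 5′ to 3′ along its gene. The windows of Wfs1 and Slc1a1 span the outer start of the gene, whereas those of Fibcd1, Man1a and Mpped1 lie wholly inside the annotated span given with each gene further on.
Wfs1: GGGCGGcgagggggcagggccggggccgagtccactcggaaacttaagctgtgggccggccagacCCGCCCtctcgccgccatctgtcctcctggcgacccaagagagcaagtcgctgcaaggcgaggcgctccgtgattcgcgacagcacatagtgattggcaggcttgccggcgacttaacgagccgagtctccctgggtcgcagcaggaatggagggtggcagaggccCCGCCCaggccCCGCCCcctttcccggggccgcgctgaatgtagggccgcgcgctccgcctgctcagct
Slc1a1: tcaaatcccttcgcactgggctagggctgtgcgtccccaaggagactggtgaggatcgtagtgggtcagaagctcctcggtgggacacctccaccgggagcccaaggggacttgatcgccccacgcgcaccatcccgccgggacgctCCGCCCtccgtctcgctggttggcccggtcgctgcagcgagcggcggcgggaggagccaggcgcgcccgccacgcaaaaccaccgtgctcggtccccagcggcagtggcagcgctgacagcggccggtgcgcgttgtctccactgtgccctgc
Fibcd1: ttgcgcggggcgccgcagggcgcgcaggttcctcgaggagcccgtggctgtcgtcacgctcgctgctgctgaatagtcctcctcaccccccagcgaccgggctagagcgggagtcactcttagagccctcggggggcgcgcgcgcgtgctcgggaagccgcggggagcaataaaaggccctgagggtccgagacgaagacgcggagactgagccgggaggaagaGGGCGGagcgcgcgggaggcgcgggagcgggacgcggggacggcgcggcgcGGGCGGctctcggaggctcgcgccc

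The GC box occurred 4 times in the Wfs1 window, 1 time in that of Slc1a1 and 2 times in that of Fibcd1. It was also present 2 times in the Man1a window and 9 times in the first of the 2 windows of Mpped1, but not in the second. Of all 32851 windows, 35.7% held it on either strand. The G and C content of the first or only window was 70.0% for Wfs1, 70.3% for Slc1a1, 72.7% for Man1a, 74.3% for Fibcd1 and 89.3% for Mpped1, where the median of all windows was 52.7%. The second Mpped1 window had 47.3%. None of these windows held the octamer ATGCAAAT, the textbook site of POU-domain factors such as Pou3f1, which was in 1.74% of all windows, or TATAAA, which was in 13.6%. CCAAT occurred 1 time in the Wfs1 window and 1 time in that of Man1a, and in 37.4% of all windows. These matches describe the letters only, since no binding was measured.

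Fmr1 had 1971 to 2608 reads in wild-type libraries and 0 or 1 in Fmr1-/y libraries, as the labels require. Between 39400980 and 65565479 reads per library fell on genes. Levels are given as CPM, in which each count is divided by the size of its library after TMM scaling and brought to a common total. Marker lists gave a partial check of the captured cell type. Of 7 genes of forebrain excitatory neurons the median was 172 CPM per kilobase of exon, whereas the medians were 3.15 for CA2, 1.17 for CA3, 1.94 for dentate granule cell, 5.74 for interneuron, 17.0 for astrocyte, 13.3 for oligodendrocyte, 4.62 for microglia and 2.26 for endothelial markers. The choroid plexus markers had a median of 38.4 CPM per kilobase, and among them Ttr, the transthyretin gene, reached 8281. No marker in these lists was at 0, and without input libraries the share of RNA from other cells was not measured here. The paper compared tagged-ribosome RNA with input by quantitative RT-PCR. It reports Wfs1 and Slc1a1 as enriched, and markers of GABAergic cells, oligodendrocytes, astrocytes and microglia as reduced. Choroid plexus markers were not among the genes it lists for that comparison.

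Levels between genes were compared per kilobase of exon, using GENCODE exon lengths, since longer transcripts give more reads. The 7 genes had a median of 78.1 CPM per kilobase over the 12 libraries, where the median of all tested genes with a length was 3.48. Wfs1 stood highest at 307 CPM per kilobase, above 99.6% of those genes. Fibcd1 followed with 103, Mpped1 with 79.9 and Spink8 with 78.1 CPM per kilobase. Slc1a1 with 27.3 and Pou3f1 with 25.5 formed a lower pair, and Man1a was lowest with 4.93 CPM per kilobase, above 57.1% of genes. Man1a was thus an ordinary gene by level, while the other 6 were above 88.3% of genes or more.

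This order had 3 clear steps. In CPM per kilobase, the lowest library for Wfs1 (249) was above the highest for Fibcd1 (127), the lowest for Spink8 (45.9) was above the highest for Slc1a1 (30.5), and the lowest for Pou3f1 (12.9) was above the highest for Man1a (5.73). Fibcd1 exceeded Mpped1 in 12 of 12 libraries although their ranges overlapped. Mpped1 exceeded Spink8 in 8 of 12 libraries and Slc1a1 exceeded Pou3f1 in 9 of 12, so neither pair had a fixed order. For Pou3f1 the GENCODE exon length, 3849 bases, is longer than its whole RefSeq span of 3010 bases. A shorter length would raise its level per kilobase, so its place beside Slc1a1 depends on the annotation. Before length was taken into account, Spink8 stood sixth among the members, since its exons sum to only 821 bases and gave 64.1 CPM.

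**Figure D1:**
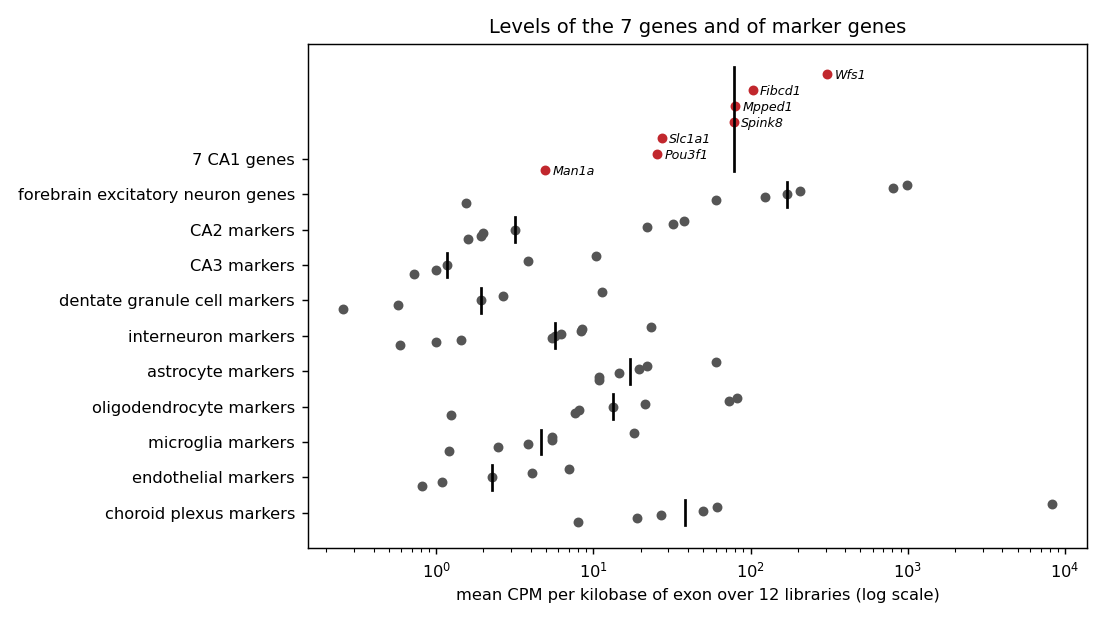
Mean CPM per kilobase of exon over 12 libraries (log axis) for the 7 CA1 genes (red, named, ordered by level) and for the genes of 10 marker lists (grey); black lines are list medians. Wfs1 stands highest of the 7 at 307 and Man1a lowest at 4.93, beside a median of 172 for the excitatory neuron genes.

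Within their families the 7 genes held different places. Spink8 was nearly alone in its family. Of 12 Spink gene names listed, 11 were found in the data, and of these only Spink8 and Spink10 had enough reads to be tested. Spink10 was at 0.0694 CPM per kilobase. Pou3f1 exceeded Pou3f3 (12.4), Pou3f2 (2.35) and Pou3f4 (0.375 CPM per kilobase), and Mpped1 at 79.9 exceeded Mpped2 at 10.2. Slc1a1 was not the leading transporter of its family, since the glial glutamate transporters Slc1a2 and Slc1a3 stood at 103 and 30.9 CPM per kilobase. Man1a was below Man1b1 (14.7) and Man1a2 (10.1) and above Man1c1 (3.33 CPM per kilobase).

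None of the 7 mRNAs passed the test between genotypes. edgeR's quasi-likelihood test, adjusted over all genes by the Benjamini-Hochberg method with a threshold of 0.05, called 0 of 7, where 0.0224% of all genes were called (4 of 17823). DESeq2 also called 0 of 7, with 0.471% of all genes called. At an unadjusted p under 0.05 edgeR gave 3 of 7, namely Wfs1, Mpped1 and Spink8, where 7.96% of all genes passed. The wild-type and Fmr1-/y libraries overlapped for each of the 7 genes, and 0.623% of all genes showed no overlap. At shares as small as those of the adjusted tests, counts of 0 say nothing particular to these genes.

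All 7 estimates were below 0. On the log2 scale they lay between -0.34 and -0.05, and their median was -0.16, beside a median of 0.00 over all genes, of which 48.6% were below 0. Among the 5987 genes with a mean log2 CPM over 5, which all 7 members belonged to, 53.9% were below 0. The members are not independent of each other, since they were read in the same libraries under the same scaling. When the counts were instead scaled to the 7 excitatory neuron genes, an alternative added after the data were seen, the median of all genes moved to 0.14. Slc1a1 was then at 0.08, Fibcd1 at 0.00, Man1a at -0.01 and Mpped1 at -0.04 on the log2 scale. Pou3f1 was at -0.05, Wfs1 at -0.13 and Spink8 at -0.22. That 7 of 7 lay below the median of all genes was nearly fixed in advance, because a change of scaling moves all genes together. Relative to that median the 7 genes lay between -0.36 for Spink8 and -0.06 for Slc1a1, beside -0.35 and -0.05 with TMM scaling. In bulk RNA of this kind, fewer tagged CA1 cells and less of an mRNA per cell cannot be told apart.

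**Figure D2:**
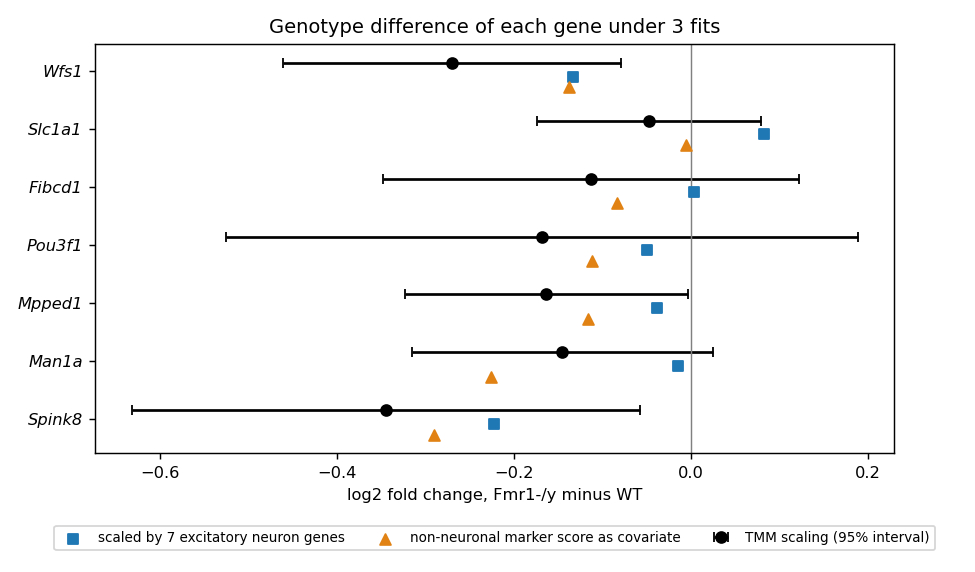
Log2 fold change (Fmr1-/y minus WT) of the 7 genes, n = 6 libraries each, with TMM scaling (black circles, bars are 95% intervals), scaled by 7 excitatory neuron genes (blue squares) and with a non-neuronal marker score as covariate (orange triangles). The black estimates lie between -0.34 and -0.05, and under the excitatory gene scaling, where the median of all genes was 0.14, Slc1a1 and Fibcd1 are at 0.08 and 0.00.

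Wfs1, on chromosome 5 from 36966104 to 36988982 (minus strand), was the most abundant of the 7 and the 66th highest of all tested genes in CPM. Wild-type libraries ran from 942 to 1434 CPM with a median of 1298, and Fmr1-/y libraries from 942 to 1176 CPM with a median of 1039. The overlap came from a single wild-type pool. WT4 was at 942 CPM while the other 5 wild-type libraries were at 1261 CPM or more, above every Fmr1-/y library. Means were 1271.6 ± 175 CPM for wild type against 1054 ± 103 CPM for Fmr1-/y (SD, n = 6 each), or 82.9% of wild type with a 95% interval of 72.7 to 94.7%. The log2 fold change was -0.27 with a standard error of 0.09 (adjusted p = 0.410 by edgeR, adjusted p = 0.209 in DESeq2).

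Without WT4 the Wfs1 estimate was -0.34 (adjusted p = 0.169 in edgeR), and Wfs1 was then the 1 member of the 7 whose libraries did not overlap, where 1.14% of all genes did not. WT4 was the lowest wild-type library for this gene, so that separation is a description only. WT4 also had the highest summed interneuron markers of all 12 libraries, 237 CPM against 112 to 192 in the other wild-type libraries, and the highest oligodendrocyte markers, 1565 against 1058 to 1445 CPM. The part of other cells in its Wfs1 level was not tested. With WT4 and KO4 both left out, which was added after the data were seen, Wfs1 was at -0.33 (adjusted p = 0.308).

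Reads of the endogenous Wfs1 gene and any from Wfs1 sequence on the transgene cannot be told apart in gene counts. Both genotypes carried the transgene. Genes that act with wolframin in the stress response of the endoplasmic reticulum were examined as a list. Of 11 such genes 0 were called, 4 estimates were above 0 and 7 below, and the median log2 fold change was -0.03. Atp2a2, the calcium pump of this organelle and the highest of the list, stood at 817 ± 38.6 CPM in wild type against 739 ± 21.8 CPM in Fmr1-/y (log2 fold change -0.15, adjusted p = 0.440). Hspa5, the chaperone BiP, had the smallest edgeR p of the list and lay on the other side of 0. It was at 605 ± 50.6 CPM in wild type against 698 ± 60.1 CPM in Fmr1-/y (log2 fold change 0.21, adjusted p = 0.415 by edgeR). In DESeq2 the smallest unadjusted p of the list was that of Atp2a2 (0.0022, against 0.0072 for Hspa5).

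Man1a, on chromosome 10 from 53904785 to 54076616 (minus strand), was the lowest member. Wild-type libraries ran from 40.9 to 55.2 CPM with a median of 50.7, and Fmr1-/y libraries from 41.3 to 51.4 CPM with a median of 44.4. The Fmr1-/y range lay inside that of wild type, and the lowest library of all was WT6. The means were 49.99 ± 5.497 and 45.2 ± 3.64 CPM (SD, n = 6 each), and Fmr1-/y was at 90.4% of wild type with an interval of 80.4 to 102% (log2 fold change -0.15, SE 0.08, adjusted p = 0.707 by edgeR). The related mannosidase Man1b1 was on the other side of 0, at 75.1 ± 3.31 CPM in wild type against 83.0 ± 4.26 CPM in Fmr1-/y (log2 fold change 0.15, adjusted p = 0.500). The annotation places 2 genes on the opposite strand over Man1a, Gm47917 and Gm16998, and the counting used the strand of the reads.

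Slc1a1, on chromosome 19 from 28835135 to 28913960 (plus strand), was the most even of the 7 genes. Wild-type libraries ran from 209 to 252 CPM with a median of 228, and Fmr1-/y libraries from 199 to 240 CPM with a median of 222. The ranges covered almost the same span. The means were 229 ± 13.4 and 221 ± 15.4 CPM (SD, n = 6 each), and Fmr1-/y was at 96.8% of wild type with an interval of 88.7 to 106% (log2 fold change -0.05, SE 0.06, adjusted p = 0.920 by edgeR). Slc1a1 also overlaps 2 genes of the opposite strand, the pseudogene Gm5822 and 4430402I18Rik.

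The glial members of the same transporter family had estimates above 0, and none was called. Slc1a2 measured 1238 ± 65.4 CPM in wild type against 1465 ± 171 CPM in Fmr1-/y (log2 fold change 0.24, adjusted p = 0.361 by edgeR). Slc1a3 measured 242 ± 24.9 and 284 ± 56.0 CPM (log2 fold change 0.23, adjusted p = 0.633). Over the 7 Slc1a genes 3 estimates were above 0 and 4 below, with a median of -0.03. The 6 astrocyte markers lay above 0 as well, 6 of 6 with a median of 0.17, and their summed level was 604 to 729 CPM in wild type and 673 to 1006 CPM in Fmr1-/y. Whether astrocyte RNA had a part in the Slc1a2 values was not tested.

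Fibcd1, on chromosome 2 from 31813290 to 31846964 (minus strand), had a wider range among Fmr1-/y pools than among wild-type pools, a difference that was not tested. Wild-type libraries ran from 468 to 605 CPM with a median of 499, and Fmr1-/y libraries from 328 to 583 CPM with a median of 485. Both the lowest library, KO4, and the second highest, KO2, were Fmr1-/y. The means were 510 ± 49.8 and 472 ± 94.4 CPM (SD, n = 6 each), and Fmr1-/y was at 92.5% of wild type with an interval of 78.6 to 109% (log2 fold change -0.11, SE 0.11, adjusted p = 0.877 by edgeR). Single pools weighed heavily on this value, which was -0.03 without KO4, -0.06 without WT1, -0.07 without KO5 and -0.18 without KO2, and -0.05 without WT4 and KO4 together.

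Pou3f1, on chromosome 4 from 124657646 to 124660655 (plus strand), is a gene of a single exon and was the most variable of the 7. Wild-type libraries ran from 86.9 to 145 CPM with a median of 93.5, and Fmr1-/y libraries from 49.8 to 125 CPM with a median of 95.6. The median was higher in Fmr1-/y while the mean was lower, with WT1 far above the other wild-type libraries and KO4 far below the other Fmr1-/y libraries. The means were 104 ± 22.2 and 92.4 ± 25.5 CPM (SD, n = 6 each), and Fmr1-/y was at 89.0% of wild type with an interval of 69.5 to 114% (log2 fold change -0.17, SE 0.17, adjusted p = 0.883 by edgeR). The estimate was -0.04 without KO4, -0.05 without WT1, -0.27 without KO2 and -0.09 without WT4 and KO4 together. The paralogue Pou3f3 was at 96.4 ± 10.02 and 87.2 ± 15.2 CPM (log2 fold change -0.15, adjusted p = 0.799), and 4 of 4 Pou3f genes had estimates below 0 with 0 called (3 of 4 without scaling factors).

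Mpped1, on chromosome 15 from 83779472 to 83858487 (plus strand), ran from 326 to 397 CPM in wild-type libraries with a median of 360, and from 284 to 375 CPM in Fmr1-/y libraries with a median of 316. Of the Fmr1-/y libraries 4 were below every wild-type library, and KO2 and KO6 lay among the wild-type libraries. The means were 363 ± 24.9 and 324 ± 38.9 CPM (SD, n = 6 each), and Fmr1-/y was at 89.3% of wild type with an interval of 79.9 to 99.7% (log2 fold change -0.16, SE 0.08, adjusted p = 0.618 by edgeR). Mpped2, its paralogue, had a log2 fold change of -0.10 (adjusted p = 0.854).

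Spink8, on chromosome 9 from 109812203 to 109826628 (plus strand), had the lowest level in Fmr1-/y relative to wild type of the 7. Wild-type libraries ran from 58.5 to 95.6 CPM with a median of 67.3, and Fmr1-/y libraries from 37.7 to 69.1 CPM with a median of 55.2. Of the Fmr1-/y libraries 4 were below every wild-type library, and 3 wild-type libraries were above every Fmr1-/y library. The means were 71.7 ± 13.97 and 56.5 ± 11.3 CPM (SD, n = 6 each), and Fmr1-/y was at 78.8% of wild type with an interval of 64.5 to 96.1% (log2 fold change -0.34, SE 0.14, adjusted p = 0.512 by edgeR, adjusted p = 0.339 in DESeq2).

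**Figure D3:**
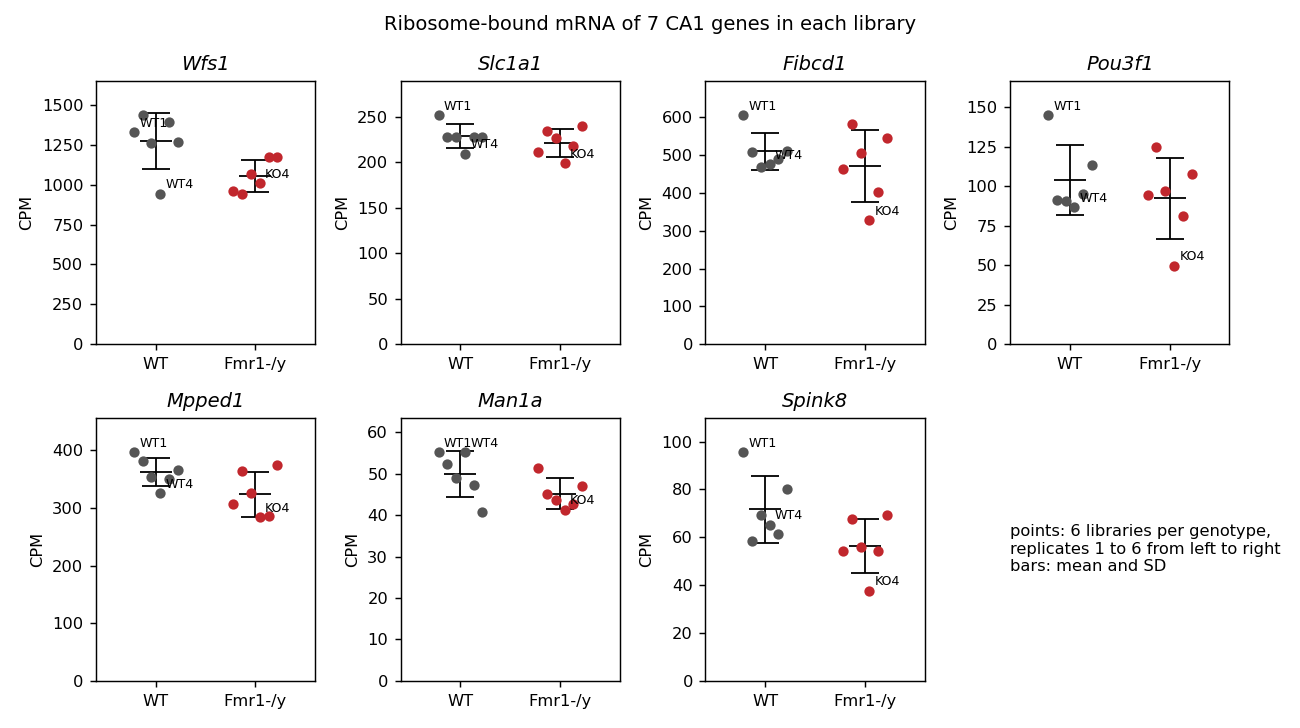
CPM of each of the 7 genes in 6 wild-type (grey) and 6 Fmr1-/y (red) libraries, replicates 1 to 6 from left to right, with the mean and SD as bars and WT1, WT4 and KO4 named. WT4 lies at 942 CPM for Wfs1 among the Fmr1-/y libraries, WT1 stands high for Fibcd1, Pou3f1 and Spink8, and KO4 stands low for them.

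The spread of a gene over libraries sets how small a difference can be seen. The biological coefficient of variation within genotypes was 8.19% for Slc1a1, 9.91% for Mpped1, 10.5% for Man1a, 11.6% for Wfs1, 13.97% for Fibcd1, 16.8% for Spink8 and 20.6% for Pou3f1, where genes with a mean log2 CPM over 5 had a median of 9.73%. Compared with about 500 genes nearest in level, the SD of Pou3f1 was above that of 99.2%, Spink8 above 95.6% and Fibcd1 above 93.6%. Man1a and Slc1a1 were ordinary in this respect, above 51.7% and 28.7%. Each member had at least 1636 reads in every library, so counting error was small beside the spread between pools.

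The spread was largely shared by 5 of the 7 genes. Slc1a1, Fibcd1, Pou3f1, Mpped1 and Spink8 went up and down together over the libraries, whereas over all 12 libraries Wfs1 and Man1a followed them less closely. With the genotype means taken out, Pearson's r of log2 CPM over the 12 libraries was 0.73 to 0.96 for the 10 pairs among the 5 genes (Spearman's rho 0.72 to 0.92), with Fibcd1 and Pou3f1 as the closest pair (r = 0.96, rho = 0.92). The 11 pairs with Wfs1 or Man1a had r between -0.29 and 0.48 (rho -0.16 to 0.38). The division into 5 and 2 was made after the values were seen, and the libraries, their depth and the scaling are common to all points. Over all 21 pairs the median r was 0.48 (rho 0.38), beside a median of 0.05 and a 90th percentile of 0.70 for all pairs of the 5987 genes over log2 CPM 5.

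KO4 was the lowest Fmr1-/y library for 6 of the 7 genes, while WT1 and KO6 were above their genotype means for 7 of 7 and KO2 for 6 of 7. The median deviation of the 7 genes was -0.18 in KO4, 0.15 in WT1, 0.22 in KO6 and 0.18 in KO2 on the log2 scale. Pou3f1 in KO4 was 0.84 below its genotype mean on the log2 scale, Spink8 0.56 and Fibcd1 0.50, and Wfs1 in the same library only 0.06 below. In WT4 the reverse held, with Wfs1 0.42 below its mean and the other 6 between 0.23 below and 0.15 above. Without KO4 and WT1 the 10 pairs of the 5 genes still had r between 0.56 and 0.91, and pairs with Wfs1 or Man1a between -0.44 and 0.56. Within wild-type libraries alone the 10 pairs ran from 0.51 to 0.94, and within Fmr1-/y libraries from 0.81 to 0.97. The pairs with Wfs1 or Man1a ran from -0.29 to 0.74 within wild type, where Wfs1 had r = 0.74 with Mpped1 and 0.68 with Slc1a1, and from -0.29 to 0.56 within Fmr1-/y. The division into 5 and 2 genes therefore did not hold within the 6 wild-type libraries alone.

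**Figure D4:**
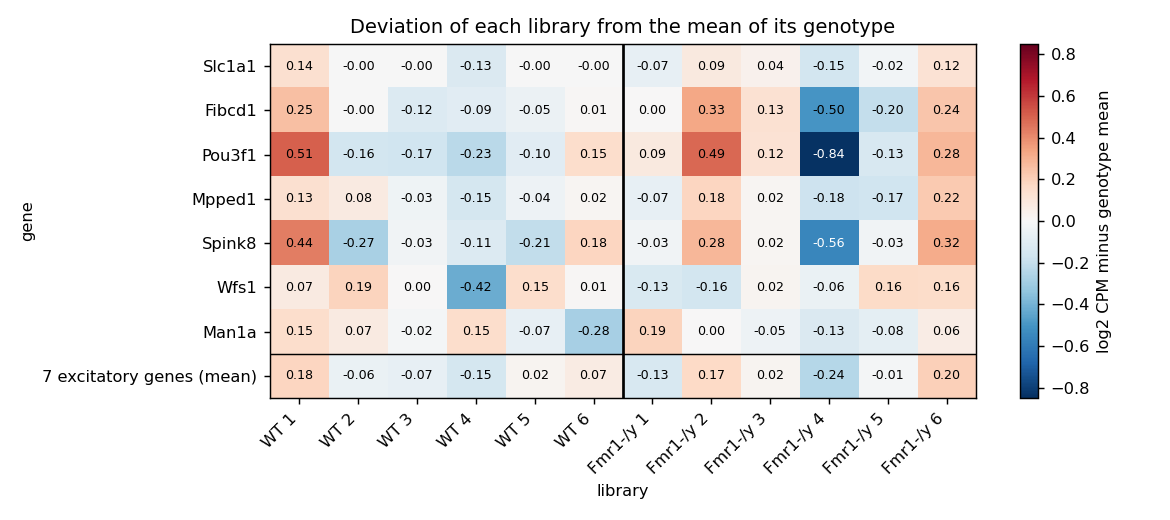
Log2 CPM minus the mean of the genotype for the 7 genes and for the mean of 7 excitatory neuron genes (rows) in 12 libraries (columns); red is above and blue below the mean. KO4 is blue and WT1 red for the upper 5 genes, while Wfs1 is lowest in WT4.

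The same 5 genes also varied with the excitatory neuron genes. The mean log2 CPM of the 7 excitatory neuron genes had r = 0.95 with Slc1a1, 0.88 with Pou3f1, 0.88 with Spink8, 0.86 with Fibcd1 and 0.85 with Mpped1 over the 12 libraries, but 0.39 with Wfs1 and 0.00 with Man1a (rho 0.96, 0.91, 0.85, 0.82, 0.84, 0.38 and 0.01). KO4 had the lowest summed excitatory genes of the Fmr1-/y libraries (7917 CPM) and WT4 the lowest of the wild-type libraries (8529 CPM). The excitatory list itself was below 0 in 7 of 7 genes with a median log2 fold change of -0.11 and 0 called, and in 6 of 7 when no scaling factor was used. Its highest gene, the kinase Camk2a, was at 6207 ± 409 CPM in wild type against 5826 ± 366 CPM in Fmr1-/y (log2 fold change -0.09, adjusted p = 0.790), and its lowest gene, the receptor subunit Grin2b, was at 42.7 ± 2.79 and 34.7 ± 7.81 CPM (log2 fold change -0.30, adjusted p = 0.512).

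The genes whose course was most like that of each member differed between them as well. For Wfs1 these were Rab11fip5 (r = 0.95), Inpp4a (0.89) and Asap1 (0.87), and the nearest other member, Slc1a1, was only in place 654 of the 5987 genes. For Slc1a1 they were B4galt3 (0.96), Sec14l1 (0.96) and Rbfox1 (0.96). Fibcd1 was closest to Kcnab2 (0.97), Pou3f3 (0.96), which is the paralogue of another member, and Dkk3 (0.96). Pou3f1 was closest to Map4 (0.98), Hpca (0.98) and Igfbp4 (0.97), and Spink8 was closest to Tmsb4x (0.98), Khdrbs3 and Tspan13. For Mpped1 the closest were Wasf1 (0.99), Ephb3 (0.95) and Tmem150c (0.94). Man1a had no comparably close partner, with B2m (0.83), Gsn (0.79) and Eno1b (0.78) at the top. All these values are over 12 libraries and were picked as the highest of all genes over log2 CPM 5. They therefore describe these libraries only. Among Slc1a1, Fibcd1, Pou3f1, Mpped1 and Spink8 themselves, places ran from 7 (Pou3f1 for Fibcd1) to 990 (Mpped1 for Spink8). Many other genes thus followed a member as closely as some of the 5 did.

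Markers of some other cell types lay to one side of 0 beside the 7 genes, although none was called. The 6 choroid plexus markers had estimates above 0 in 6 of 6 genes with a median log2 fold change of 0.41, and their summed level was 6405 to 11899 CPM in wild type and 8331 to 17561 CPM in Fmr1-/y. Folr1, a folate receptor of this epithelium, had the smallest p of that list, at 92.4 ± 19.1 and 136 ± 36.8 CPM (log2 fold change 0.56, adjusted p = 0.301 by edgeR). The 5 endothelial markers were above 0 in 5 of 5 genes with a median of 0.37, at 35.1 to 50.6 CPM in wild type and 45.3 to 66.7 CPM in Fmr1-/y when summed. Oligodendrocyte markers were below 0 in 6 of 7 genes (5 of 7 without scaling factors) with a median of -0.17, at 1058 to 1565 and 955 to 1438 CPM when summed. Microglia markers had a median of 0.01, interneuron markers of -0.09, CA2 markers of 0.00, CA3 markers of -0.02 and dentate markers of -0.06, with 0 called in each list.

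With the mean score of the non-neuronal markers as a covariate, the Wfs1 estimate went from -0.27 to -0.14 (adjusted p = 0.790) and that of Man1a from -0.15 to -0.23 (adjusted p = 0.583). Spink8 was at -0.29, Mpped1 at -0.12, Pou3f1 at -0.11, Fibcd1 at -0.08 and Slc1a1 at -0.01 in that fit. Thus 7 of 7 stayed below 0 and 0 were called. The lists in this score themselves differed between genotypes. Their median log2 fold changes were 0.41 for choroid plexus, 0.37 for endothelial, 0.17 for astrocyte, 0.01 for microglia and -0.17 for oligodendrocyte markers. Score and genotype are therefore not independent, and what the shifts in this fit stand for was not tested. Over the libraries with genotype means taken out, Wfs1 ran against the oligodendrocyte (r = -0.62, rho = -0.60), astrocyte (r = -0.60, rho = -0.66), CA2 (r = -0.57, rho = -0.43), microglia (r = -0.55, rho = -0.60) and interneuron scores (r = -0.50, rho = -0.40). The CA2 and interneuron relations were not particular to Wfs1. Over Slc1a1, Fibcd1, Pou3f1, Mpped1 and Spink8, r ran from -0.89 to -0.61 with CA2 scores. With interneuron scores it ran from -0.68 to -0.51 over the same genes. With choroid plexus scores they had -0.70 to -0.46, beside -0.45 for Wfs1. Man1a had r = 0.02 with CA2, -0.12 with interneuron and 0.31 with choroid plexus scores. All these values include WT4. Man1a ran with the microglia (r = 0.74, rho = 0.71) and astrocyte scores (r = 0.53, rho = 0.63).

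Calb1 and Ndst4, which are also tied to CA1, were not called either. Calb1, the calcium buffer calbindin, was at 110 ± 15.95 CPM in wild type against 116 ± 18.2 CPM in Fmr1-/y (log2 fold change 0.08, adjusted p = 0.921). Ndst4, an enzyme of heparan sulfate synthesis, was at 7.88 ± 1.42 and 6.40 ± 1.12 CPM (log2 fold change -0.30, adjusted p = 0.621).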

How the data were processed

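Reads of 12 libraries of ribosome-bound RNA (6 wild-type, 6 Fmr1-/y) were aligned by the authors to mm10 with TopHat2 2.1.1 and Bowtie2 2.2.8 and assigned to genes with HTSeq 0.6.1p1, using the strand, and the deposited values are raw counts per gene. Up to 4 libraries shared a lane, and which ones is not given in the sources used here. Groups came from the sample labels. No 2 libraries were identical.

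Genes with at least 15 reads in total were kept. The genotypes were compared with edgeR 4.0.16 (TMM, quasi-likelihood test, no block or covariate) under R 4.3.3, and p was adjusted over 17823 genes by the Benjamini-Hochberg method, with a threshold of 0.05. Standard errors (SE) of log2 fold changes were taken as the estimate over the square root of F. DESeq2 1.42.0, limma 3.58.1 voom, other scalings and filters, a replicate block, a marker covariate and left-out libraries were alternatives. Levels are CPM, and correlations used log2 CPM with a prior count of 2. On simulated counts of this comparison (17634 genes), edgeR recovered 28% of 50 genes changed 1.25-fold and 86% of 50 genes changed 1.5-fold. The same simulation also held 50 genes changed 2-fold and 50 changed 4-fold, of which 100% were recovered. More called genes make the Benjamini-Hochberg cutoff on p less strict, and the real comparison had only 4. The recovered shares therefore do not give the chance of finding such changes in the real data.

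The 7 genes and the marker lists were chosen with earlier results of these data known. Genes of a list were named only if they had its highest or lowest level or its smallest edgeR p, and were not named from every list. Also named were family members and the 3 genes with the highest r to each member. Coordinates and promoter windows are those of RefSeq on GRCm38, the build mm10 stands for, and exon lengths are from GENCODE M21 and were found for 93.2% of tested genes. 1 further list of genes tied to CA1 is not reported here as a whole.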

Additional observations from a re-analysis of the deposited data

Results flagged for a closer look

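In 2 of the 48 groups examined, 1 library lay apart from the other 5 by Dixon's ratio of its gap to the range, taken past its 95% critical value. Chance marks about 1 in 20 groups, or 2.4 of 48. In Wfs1 the wild-type library WT4 was low at 942 CPM, with the other 5 at 1261 to 1434 CPM (ratio 0.649). In Fibcd1 the wild-type library WT1 was high at 605 CPM, with the other 5 at 468 to 512 CPM (ratio 0.681). The cause of neither was tested.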

How the results depend on the processing

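Under each of 20 other settings, the 7 estimates stayed below 0 and none was called. With single libraries left out, log2 fold changes ran from -0.34 to -0.23 for Wfs1, -0.07 to -0.02 for Slc1a1, -0.18 to -0.03 for Fibcd1, -0.27 to -0.04 for Pou3f1, -0.21 to -0.13 for Mpped1, -0.20 to -0.11 for Man1a and -0.41 to -0.24 for Spink8. Scaling by 7 excitatory neuron genes, added after the data were seen, turned Slc1a1 to 0.082 and Fibcd1 to 0.0041. It also moved the median of all genes to 0.14. Such a change moves all genes together, so places relative to that median could hardly differ. The number of genes called (4, all lower in Fmr1-/y) was 84 with DESeq2 (53 lower, 31 higher), 1 with at least 10 reads in every library, 2 with the marker covariate, 2 with the excitatory gene scaling and 2 without WT4 and KO4, the last also added later. It was 2 to 6 with single libraries left out (2 to 5 lower, 0 to 1 higher). Whether the replicate numbers pair the libraries was not settled. Deviations of same-numbered libraries correlated at -0.08 to 0.09 over all genes. Over genes of log2 CPM over 5 they correlated at -0.44 to 0.60, with a mean of 0.15 and 3 of 6 pairs over 0.1. Blocking on the replicate number gave 4 called genes, and Wfs1 was at -0.26 (adjusted p = 0.290 in edgeR), Spink8 at -0.35 and Mpped1 at -0.17. With the block the SE went from 0.17 to 0.12 for Pou3f1, 0.11 to 0.09 for Fibcd1 and 0.14 to 0.11 for Spink8. For Slc1a1 it went from 0.060 to 0.057. The block changed no call among the 7. The median r of the 21 pairs of members was 0.54 with genotype means left in and 0.49 without KO2 and WT4, the 2 libraries farthest from the median of Wfs1. Per kilobase of GENCODE exon, Slc1a1 ranked 5, Pou3f1 6 and Spink8 4 of the 7. The order of Slc1a1 and Pou3f1 depends on the exon length taken for Pou3f1.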
